A study of Mus musculus with 6 samples.

Results

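Tubulin genes were followed in primary mouse keratinocytes, the cells that make up most of the epidermis, after loss of the transcription factors SOX4 and SOX11. The group comprised 10 of the 21368 mouse genes that could be named on the arrays. These were the β-tubulin isotypes *Tubb2a*, *Tubb2b*, *Tubb3*, *Tubb4b*, *Tubb5* and *Tubb6* and the α-tubulin isotypes *Tuba1a*, *Tuba1b*, *Tuba1c* and *Tuba4a*. Members were chosen by name. Each probe whose RefSeq accession belonged to one of these genes was taken, which gave 12 of 55681 probes. The names were given with earlier results of these data known, and *Tubb3* was chosen by a lower signal seen earlier in the double knockout. Whether earlier values played a part for the other members is not recorded. Counts of called tubulins therefore describe this list and do not test it. *Tubb2b* and *Tuba1b* had 2 probes each and the other genes 1. All 10 genes were well above background in both channels of all 6 arrays when read by the brightest probe. *Tubb3* is a known target of SOX4 and SOX11, and its value in the double knockout is given as a description without a test.

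The arrays compared 3 knockouts with wild-type keratinocytes, with 2 biological replicates each. *Sox4* cKO and *Sox11* cKO cells came from mice in which Cre, driven by the keratin 14 promoter, removed floxed *Sox4* or *Sox11*, and dcKO cells came from mice in which it removed both. The mice crossed to make these lines also carried Sox12-/- according to the study's methods, and the labels do not say whether the cultured cells kept that allele. Cells of every genotype were isolated from newborn pups labelled as a mixed 129SvEx:C57BL/6 background and grown on J2 feeder fibroblasts for 3 passages and kept off feeders for at least 2 passages. The keratin 14-driven Cre line was of FVB/N origin, a strain the labels do not list. Each array held a knockout and a wild-type RNA in different dyes, with the knockout in Cy5 in replicate 1 and in Cy3 in replicate 2. Whether arrays shared a wild-type RNA is not given in the labels, so the p-values measure the spread between these 6 arrays.

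Microtubules are hollow polymers of α- and β-tubulin dimers. They serve as tracks for transport, form the spindle in dividing cells, and shape and polarise migrating cells. Mammals encode several isotypes of each subunit from separate genes, and the mixture differs between cell types. *Tuba1a*, *Tubb2b* and *Tubb3* are best known from developing neurons, whereas *Tuba1b*, *Tuba1c*, *Tubb4b* and *Tubb5* are used in most dividing cells. Stathmins bind free tubulin dimers and limit polymer growth, and further families fold, nucleate, bind, sever or chemically modify tubulin.

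Across the arrays, the knockout channel held 35.1 to 42.8% of probes well above background and the wild-type channel 37.3 to 45%, and no spot was saturated. The targeted genes went with the labels. *Sox4* was lower by a log2 ratio of -2.52 in *Sox4* cKO and -2.52 in dcKO, and *Sox11* by -2.98 in *Sox11* cKO and -3.43 in dcKO (limma adjusted p between 0.00105 and 0.0412). All 10 keratinocyte markers were above background in every channel. Among 8 melanocyte markers, *Dct*, *Tyrp1*, *Sox10* and *Kit* were above it in no channel. *Mitf* was above it in 6 wild-type and 6 knockout channels, *Mlana* in 6 and 5, *Pmel* in 5 and 6 and *Tyr* in 5 and 3. On *Sox11* cKO replicate 2 the summed log2 level of this list was 10.25 in wild type and 8.96 in the knockout. Every other channel lay between 8.45 and 9.19. The part of this list in the tubulin values was not tested. Of the 10 neuron markers, *Dcx*, *Rbfox3*, *Nefl* and *Elavl3* were above background in no channel, while *Map2*, *Syp*, *Snap25* and *Elavl4* were above background in all 6 wild-type channels. The summed log2 level of the neuron list ran from 10.71 to 10.89 in the dcKO channels and from 10.65 to 10.92 in their wild-type channels. Between 0 and 3 of 10 fibroblast markers were above background in a channel, with *Col1a1*, *Col3a1*, *Lum*, *Thy1* and *Postn* in none. *Col1a2* was above background in 5 wild-type and 6 knockout channels, *Col6a2* in 2 and 3, and the other 3 in at most 1 of each. The summed log2 level of the fibroblast list was 8.53 and 9.01 in the dcKO channels, 8.39 and 8.29 in their wild-type channels and 8.23 to 8.47 in the remaining 8, and its part in the dcKO results was not tested.

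*Tuba1a* and *Tubb2b* were strongly lower in dcKO, and the other tubulins moved much less. At an adjusted p under 0.05 with a log2 fold change beyond 1.5 in size, these 2 of the 9 tubulin genes other than *Tubb3* were called lower in dcKO and none was called higher. Among all named genes, 0.833% were called lower in dcKO, and 1.42% of the named genes above background in all 6 wild-type channels were. *Sox4* cKO and *Sox11* cKO each gave 0 called tubulins with limma, where 0.164% and 0.178% of all named genes were called in either direction. By limma, 3 and 4 of the 10 genes had an unadjusted p under 0.05. The share of all named genes at that looser threshold is not given here. The median log2 fold change was 0.08 in *Sox4* cKO and 0.01 in *Sox11* cKO over the 10 genes and -0.74 in dcKO over the 9 other than *Tubb3*, beside 0, 0 and -0.01 over all named genes. In dcKO, 6 of those 9 were lower on both arrays, as were 31.9% of all named genes and 38.8% of those above background in all wild-type channels. With arrays centred on their medians in place of the intensity-dependent loess correction, the dcKO median of the 9 tubulins was -1.24. The median of all named genes, many of them near background, was -0.088, and genes as bright as the tubulins were not compared. Other microtubule genes moved down in dcKO as well, *Stmn1* from -1.74 to -2.3 and *Arhgef2* from -1.09 to -1.63. *Clasp1* moved from -0.78 to -1.3 and *Ttll4* from -1.11 to -1.6.

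**Figure D1:**
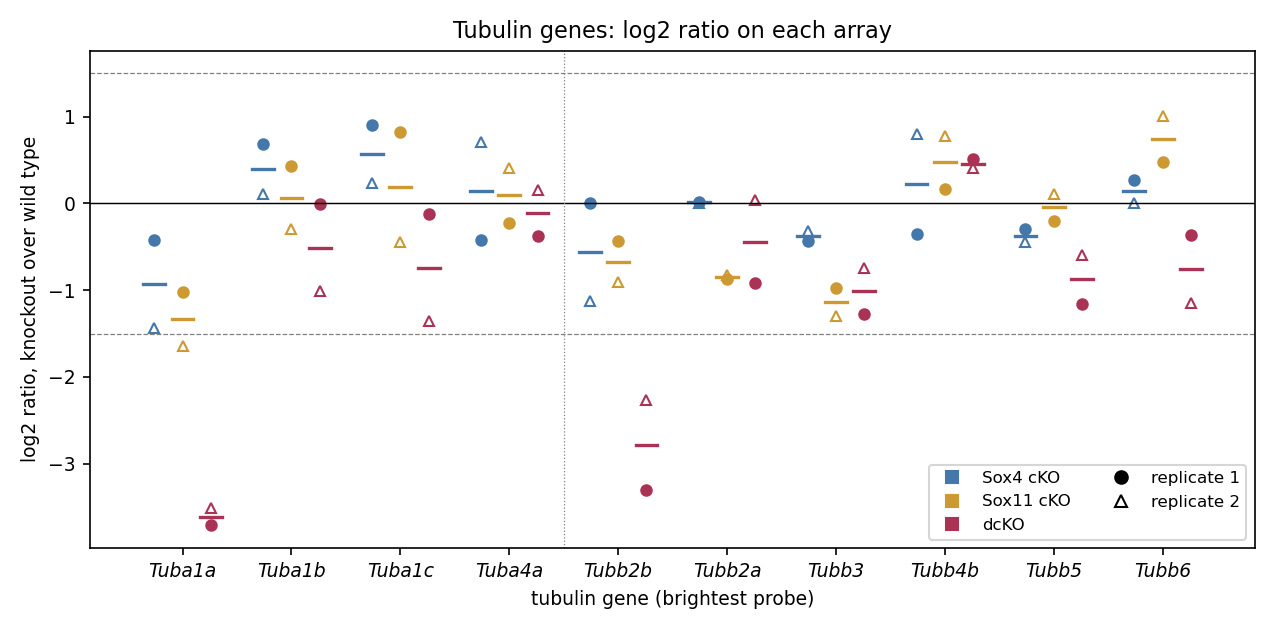
The vertical axis gives the log2 ratio of knockout over wild type for the brightest probe of each tubulin gene, by genotype (colour) and array (filled circle, replicate 1; open triangle, replicate 2), with short bars at the means and dashed lines at the 1.5 threshold. Both dcKO arrays of *Tuba1a* and *Tubb2b* lie below -2, and no other tubulin does so on any array.

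*Tuba1a* encodes the α-tubulin that predominates in young neurons. Its log2 ratio was -0.42 and -1.44 on the *Sox4* cKO arrays, -1.02 and -1.64 on the *Sox11* cKO arrays, and -3.71 and -3.51 on the dcKO arrays. All 6 arrays were thus below 0, and the dcKO pair did not overlap the other 4 arrays. The dcKO change of -3.61 ± 0.14 (SD, n = 2) corresponds to 12.2-fold less signal (SE 0.21, limma adjusted p = 0.001). In *Sox4* cKO the mean was -0.93 ± 0.72 (adjusted p = 0.317 by limma) and in *Sox11* cKO -1.33 ± 0.44 (adjusted p = 0.113 by limma), so neither single knockout passed the threshold. With the scanner software's own processed signals the dcKO value was -3.58 and the call was lost (limma adjusted p = 0.167).

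The normalised levels give the same order. *Tuba1a* read between 13.63 and 15.08 (log2) in the 6 wild-type channels, at 13.23 and 13.64 in *Sox4* cKO, at 12.79 and 12.80 in *Sox11* cKO, and at 9.92 and 10.12 in dcKO. The *Sox4* cKO channels reached into the wild-type range, the *Sox11* cKO channels lay under it, and the dcKO channels were the lowest of all 12. In bulk RNA, fewer cells that use a gene and less transcript per cell cannot be told apart.

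The fall of *Tuba1a* was larger in dcKO than in either single knockout. Set against *Sox4* cKO, dcKO differed by -2.68 (95% interval -3.39 to -1.97, limma adjusted p = 0.019) and set against *Sox11* cKO by -2.28 (95% interval -2.99 to -1.57, limma adjusted p = 0.0323). Of the 9 tubulins other than *Tubb3* it was the 1 called in either contrast, where 1.03% and 0.786% of all named genes were called in either direction. Against the sum of the single-knockout changes, dcKO differed by -1.35 (95% interval -2.22 to -0.48), which missed the threshold (limma adjusted p = 0.217). For that departure from additivity 0 of the 9 were called by limma, beside 0.585% of all named genes. By limma, 5 of the 9 had an unadjusted p under 0.05, with no like share of all named genes given. Both differences missed the threshold without the term for the dye and replicate number (limma adjusted p = 0.0535 against *Sox4* cKO and 0.0975 against *Sox11* cKO), with an offset of 50 (limma adjusted p = 0.104 and 0.149) and with the processed signals (limma adjusted p = 0.324 and 0.378). With only probes above background on at least 2 arrays, the second also missed it (limma adjusted p = 0.0596). Without dcKO replicate 1 they were -2.17 (limma adjusted p = 0.0817) and -1.77 (limma adjusted p = 0.133), without *Sox4* cKO replicate 1 or 2 the first was -2.27 or -3.08 (limma adjusted p = 0.145 and 0.0636), and without dcKO replicate 2 the second was -2.79 (limma adjusted p = 0.0689).

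*Tubb2b*, a β-tubulin of migrating neurons, was also lowest in dcKO. The brighter probe had log2 ratios of 0.00 and -1.12 in *Sox4* cKO, -0.43 and -0.91 in *Sox11* cKO, and -3.30 and -2.27 in dcKO. Its dcKO mean was -2.78 ± 0.72 (SD, n = 2), or 6.88-fold less signal (SE 0.32, limma adjusted p = 0.00929). The second probe read 0.07 and -1.12, then -0.68 and -0.90, then -2.25 and -2.04, with a dcKO mean of -2.14 (limma adjusted p = 0.00794), although its dcKO channel was well above background on 1 of the 2 arrays. On both probes the dcKO arrays were the 2 lowest. The brighter probe lost its call with a normexp offset of 50 (-2.72, limma adjusted p = 0.0772), with the processed signals (-2.87, limma adjusted p = 0.228) and without dcKO replicate 1 (-1.87, limma adjusted p = 0.0933).

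In levels, the brighter *Tubb2b* probe read between 12.31 and 14.00 in the wild-type channels and at 9.02 and 10.73 in dcKO, below all 6. The single-knockout channels, at 12.21 to 13.20, overlapped the wild type. The difference between dcKO and *Sox4* cKO was -2.22 (95% interval -3.28 to -1.16, limma adjusted p = 0.0913) and that between dcKO and *Sox11* cKO -2.11 (95% interval -3.17 to -1.06, limma adjusted p = 0.119), so neither passed over all probes.

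*Tubb3* encodes the neuronal class III β-tubulin, the protein detected by the Tuj1 antibody. Its log2 ratio was -0.43 and -0.32 in *Sox4* cKO, -0.98 and -1.30 in *Sox11* cKO, and -1.27 and -0.74 in dcKO, below 0 on all 6 arrays. The dcKO mean of -1.01 ± 0.37 (SD, n = 2), or 2.01-fold less signal, is given without a test because it was known when the genes were listed. In *Sox11* cKO the mean was -1.14 ± 0.22 (limma adjusted p = 0.106) and in *Sox4* cKO -0.37 ± 0.08 (limma adjusted p = 0.714). The *Sox11* cKO and dcKO arrays interleaved, with a difference of 0.13 (95% interval -0.46 to 0.72). A further loss of up to 0.46 or a recovery of up to 0.72 is within the interval. The interval rests on the dcKO value known beforehand, so it describes this difference and does not test it. The sign of that difference turned under median centring, which gave -0.48.

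The wild-type levels of *Tubb3* ranged from 10.37 to 12.60, a span wider than its change within any array. Wild-type levels were 12.42 and 12.60 on the *Sox4* cKO arrays, 11.56 and 10.42 on the *Sox11* cKO arrays, and 10.37 and 11.56 on the dcKO arrays, an SD of 0.95 over the 6. The *Sox4* cKO channels, at 11.99 and 12.28, stood above 4 of the 6 wild-type channels, and dcKO replicate 2, at 10.82, stood above 2 of them. The SD of wild-type levels over the 6 channels was 0.60 for *Tuba1a* and 0.28 for the brighter *Tuba1b* probe.

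**Figure D2:**
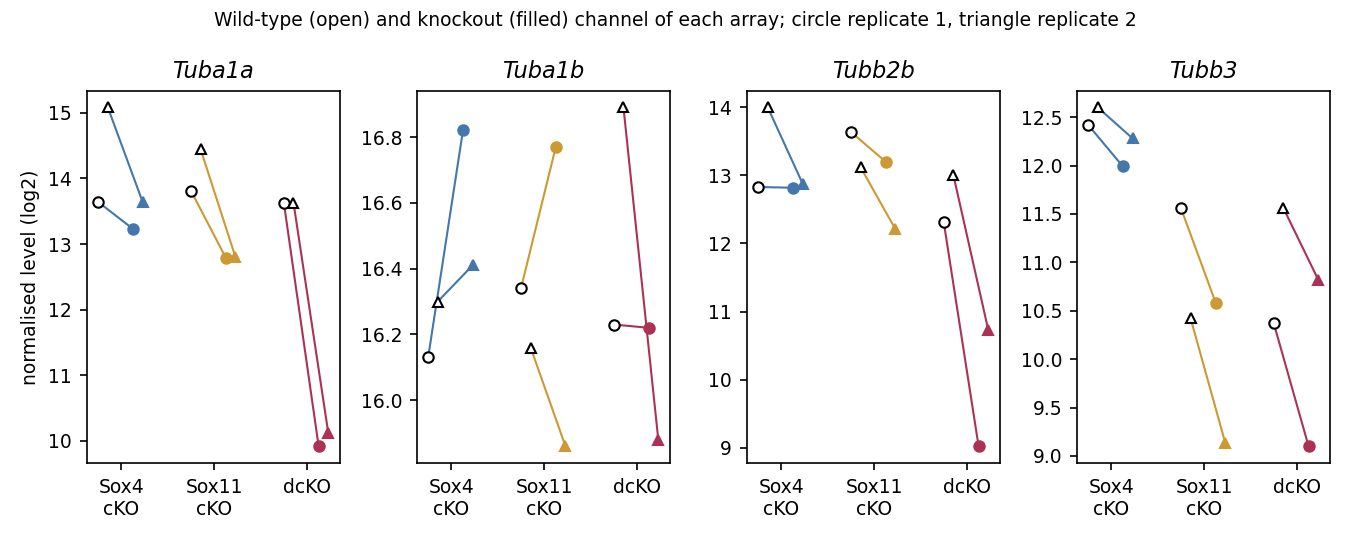
Each line joins the wild-type channel (open) to the knockout channel (filled) of 1 array, on a vertical axis of normalised log2 level whose range differs between the 4 panels; circles are replicate 1 and triangles replicate 2. The dcKO points of *Tuba1a* (9.92 and 10.12) and *Tubb2b* (9.02 and 10.73) fall below every wild-type point, whereas the wild-type points of *Tubb3* spread from 10.37 to 12.60 and the *Tuba1b* panel spans only about 1 log2 unit.

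*Tuba1b* and *Tuba1c*, the widely expressed α-tubulins, lie on either side of *Tuba1a* on chromosome 15 and encode nearly the same protein. In the RefSeq gene order no gene separates *Tuba1a* from *Tuba1b*, and 4 non-coding genes separate it from *Tuba1c*. The brighter *Tuba1b* probe read 0.68 and 0.11 in *Sox4* cKO, 0.43 and -0.30 in *Sox11* cKO and -0.01 and -1.01 in dcKO, a dcKO mean of -0.51 ± 0.70 (limma adjusted p = 0.176). Its second probe gave -0.48 ± 0.31 in dcKO (limma adjusted p = 0.196), and the mean of both probes turned the sign in *Sox11* cKO from 0.07 to -0.05. *Tuba1c* read 0.90 and 0.23, then 0.82 and -0.44, then -0.12 and -1.36, a dcKO mean of -0.74 ± 0.88 (limma adjusted p = 0.0816). Both genes stayed close to their wild-type partner on dcKO replicate 1 and were lower on dcKO replicate 2. In the single knockouts, too, both read lower on replicate 2 than on replicate 1. The dye follows the replicate number, so dye and replicate cannot be told apart here.

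Taking the difference on the same array removes what both genes share, but not a dye or replicate effect that differs between the genes. *Tuba1a* lay below *Tuba1b* by -3.69 and -2.51 in dcKO, against -1.10 and -1.55 in *Sox4* cKO and -1.45 and -1.34 in *Sox11* cKO. The difference between *Tuba1a* and *Tuba1c* was -3.59 and -2.15 in dcKO and between -1.84 and -1.20 on the other 4 arrays. On all 6 arrays *Tuba1a* was the lowest of the 3 neighbours, and the dcKO arrays held the 2 largest differences for either pair.

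*Tubb2a* and *Tubb2b* form a second such pair, on chromosome 13, with 1 non-coding gene between them. *Tubb2a*, a β-tubulin of neurons and many other cells, read 0.02 and 0.01 in *Sox4* cKO, -0.87 and -0.82 in *Sox11* cKO and -0.92 and 0.04 in dcKO. The *Sox11* cKO mean of -0.85 ± 0.04 did not pass the threshold (limma adjusted p = 0.288), nor did the dcKO mean of -0.44 ± 0.68 (limma adjusted p = 0.419). Without dcKO replicate 1 the dcKO estimate, adjusted for the shared dye effect, was 0.02. *Tubb2b* lay below *Tubb2a* by -2.37 and -2.31 in dcKO and by no more than -1.13 on the other 4 arrays, on 1 of which it was higher by 0.44. The wild-type level of *Tubb2a* was itself lower on the dcKO arrays, at 11.7 and 12.12 against 12.98 to 13.47 on the other 4. Its dcKO channels read 10.78 and 12.16, so the small *Tubb2a* ratio there was taken against a low partner channel. Tubulin isotypes are similar in sequence, and whether a probe also captured a paralog was not analysed here.

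**Figure D3:**
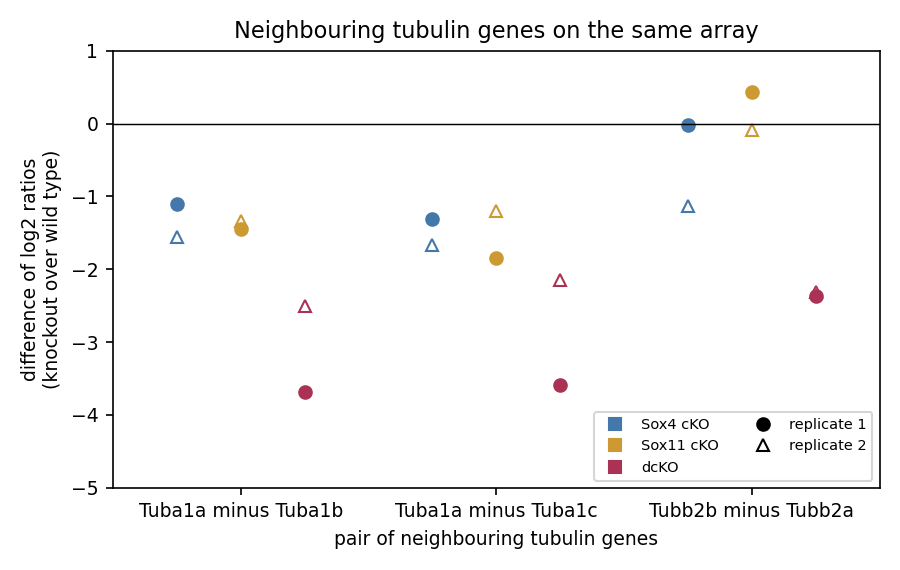
The vertical axis gives the difference between the log2 ratios (knockout over wild type) of 2 neighbouring tubulin genes on the same array, for the 3 pairs named on the horizontal axis; colours are genotypes, filled circles replicate 1 and open triangles replicate 2. The dcKO arrays give the lowest values in all 3 pairs, from -3.69 to -2.15.

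Promoter sequence was set beside these values for *Tuba1a* and its neighbour *Tuba1b*, for *Tubb3* and for *Tubb2a*. No RefSeq window was found for *Tubb2b* or *Tubb6*, so *Tubb2b* could not be set beside *Tubb2a*. RefSeq windows of the 250 bases before the annotated start were found for the other 8 of the 10 genes. They were searched on both strands for ACAAT, the core letters bound by SOX factors, for a longer form of it that starts with 1 more A (AACAAT), and for the core promoter letters TATAA. Every match of the longer form also holds the shorter, and on opposite strands TATAA can overlap itself. In the sequences below, on GRCm38.p6 and read 5′ to 3′ on the strand of the gene, capitals mark ACAAT or TATAA on either strand. *Tuba1a* (chr15:98953502-98953751, minus strand), *Tuba1b* (chr15:98934391-98934640, minus strand), *Tubb3* (chr8:123411303-123411552, plus strand) and *Tubb2a* (chr13:34078009-34078258, minus strand) are shown as the strongly lower gene, its adjacent neighbour, the known SOX target, and the neighbour of *Tubb2b*.
Tuba1a: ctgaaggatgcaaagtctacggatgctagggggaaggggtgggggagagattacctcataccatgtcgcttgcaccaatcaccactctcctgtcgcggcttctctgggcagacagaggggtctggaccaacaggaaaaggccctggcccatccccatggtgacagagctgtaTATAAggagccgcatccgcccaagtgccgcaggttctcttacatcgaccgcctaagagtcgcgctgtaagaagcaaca
Tuba1b: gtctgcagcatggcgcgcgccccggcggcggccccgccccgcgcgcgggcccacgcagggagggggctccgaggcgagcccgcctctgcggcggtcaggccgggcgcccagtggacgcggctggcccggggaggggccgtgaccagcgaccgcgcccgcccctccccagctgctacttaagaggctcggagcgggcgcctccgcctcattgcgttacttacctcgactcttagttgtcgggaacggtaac
Tubb3: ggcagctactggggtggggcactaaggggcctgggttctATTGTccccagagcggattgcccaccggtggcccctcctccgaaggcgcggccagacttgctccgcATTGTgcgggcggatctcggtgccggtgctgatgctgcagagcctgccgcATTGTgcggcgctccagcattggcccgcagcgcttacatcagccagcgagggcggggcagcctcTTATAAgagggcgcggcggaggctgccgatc
Tubb2a: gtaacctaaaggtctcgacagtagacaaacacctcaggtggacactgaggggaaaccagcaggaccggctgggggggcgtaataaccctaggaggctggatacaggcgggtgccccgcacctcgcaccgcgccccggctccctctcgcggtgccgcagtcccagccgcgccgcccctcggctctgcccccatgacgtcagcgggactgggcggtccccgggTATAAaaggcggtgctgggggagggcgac

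ACAAT occurred 3 times in the *Tubb3* window, starting at -211, -145 and -95 relative to the annotated start, each on the opposite strand. It also occurred 2 times in the *Tubb4b* window and 1 time in that of *Tubb5*, and it was in none of the windows of *Tuba1a*, *Tuba1b*, *Tuba1c*, *Tuba4a* and *Tubb2a*. That is 3 of 8 windows, where 27.7% of 32851 mouse windows of the same length hold it. The longer form was in 2 of the 8 windows, where 9.42% of all windows hold it. A related SOX motif, AACAAAG, was also searched on both strands and was in 0 of the 8 windows, where 5.03% of all windows hold it. TATAA was in the windows of *Tuba1a*, *Tubb3* and *Tubb2a* and not in that of *Tuba1b* (22.8% of all). These matches describe letters in the window and were not tested as binding sites.

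*Tubb5*, *Tubb4b* and *Tubb6* are β-tubulins of dividing and other non-neuronal cells, and *Tuba4a* is an α-tubulin of many adult tissues. *Tubb5* read -0.30 and -0.45 in *Sox4* cKO, -0.20 and 0.11 in *Sox11* cKO, and -1.16 and -0.59 in dcKO. Its dcKO mean of -0.88 ± 0.40, 1.83-fold less signal, lay just outside the adjusted threshold (limma adjusted p = 0.0519). *Tubb4b* had the only positive dcKO mean of the 10, at 0.46 ± 0.07 from 0.51 and 0.41 (limma adjusted p = 0.439). That sign turned to -0.06 under median centring. Without dcKO replicate 1 the estimate adjusted for the shared dye effect was -0.02. *Tuba4a* showed no common direction, with -0.42 and 0.71, -0.22 and 0.41, and -0.37 and 0.15 in the 3 genotypes. In each genotype replicate 1 of *Tuba4a* was below 0 and replicate 2 above it.

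*Tubb6* had means of opposite sign in *Sox11* cKO (0.74 ± 0.37, limma adjusted p = 0.467) and dcKO (-0.76 ± 0.56, limma adjusted p = 0.172), neither of which passed the threshold. Its log2 ratios were 0.27 and 0.01 in *Sox4* cKO, 0.48 and 1.01 in *Sox11* cKO, and -0.36 and -1.15 in dcKO. Leaving out replicate 1 or 2 of a genotype moved its estimate to 1.27 or 0.22 in *Sox11* cKO and to -1.22 or -0.29 in dcKO. These estimates are adjusted for the shared dye effect and are not the ratio of the remaining array. The difference between dcKO and *Sox11* cKO was -1.5 (95% interval -2.24 to -0.76) and missed the threshold over all probes (limma adjusted p = 0.115). It passed under median centring at -2.03 (limma adjusted p = 0.0153) and without *Sox11* cKO replicate 1 at -2.03 (limma adjusted p = 0.00458). In levels the *Sox11* cKO channels, at 14.94 and 15.15, stood above all 6 wild-type channels (13.56 to 14.91), and the dcKO channels, at 13.60 and 14.55, lay within them.

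By root mean square difference over the 6 log2 ratios, the genes nearest to *Tubb3* among 10690 genes above background in all wild-type channels were *L3mbtl3* (0.25), *Slc39a6* (0.26), *Papln* (0.27), *Ltbp4* (0.28) and *Klf6* (0.30). *L3mbtl3* read -0.62, -0.81, -0.78, -1.18, -1.20 and -0.93 over the *Sox4* cKO, *Sox11* cKO and dcKO arrays in that order. No tubulin was among these 5 genes. For *Tuba1a*, searched the same way after its values were seen, the nearest was *Evl* (0.49), an actin filament regulator, and for *Tubb2b* it was *Rtl8c* (0.37). *Evl* read -3.25 and -3.96 in dcKO, and *Rtl8c* read -2.93 and -2.74.

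The remaining genes of the microtubule system moved little as groups. Of 121 listed genes other than the 10 tubulins, 120 had a named probe, with a median of -0.07 (log2 fold change) in dcKO. Both thresholds were passed by 1 of these genes in dcKO (*Stmn1*, lower), by 1 in *Sox11* cKO (*Stmn2*, lower) and by 0 in *Sox4* cKO with limma. In *Sox4* cKO 22 had an unadjusted limma p under 0.05, with no like share of all named genes given. In dcKO 4 of the 120 were lower and 0 higher by the adjusted p alone, beside 2.14% and 1.46% of all named genes. The 1 of 120 past both thresholds in dcKO stands beside the 0.833% of all named genes called lower, and the 1 in *Sox11* cKO beside 0.178% called in either direction. Between dcKO and *Sox4* cKO, 1 of the 120 was called higher (*Mtus1*) and 1 lower (*Ttll4*), between dcKO and *Sox11* cKO 2 were called higher (*Mtus1* and *Stmn2*), and the same 2 departed upward from additivity, where 1.03%, 0.786% and 0.585% of all named genes were called in either direction.

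The 10 other tubulin genes included minor α and β isotypes and the γ, δ and ε tubulins of centrosomes and basal bodies. None passed in any genotype, and their dcKO medians were 0.04 for the α and β isotypes and -0.08 for the γ, δ and ε tubulins. Of the 6 other α and β isotypes only 1 gave a dcKO or matched wild-type signal well above background. *Tubd1*, the δ-tubulin gene, had the largest dcKO value of the 10, at 0.92. Of the 21 genes that fold tubulin, covering the tubulin cofactors, the CCT chaperonin and prefoldin, 0 passed in any genotype, and their dcKO values ran from -0.49 to 0.29. The 11 genes of the γ-tubulin ring complex and its partners also gave 0 in each genotype, with dcKO values from -0.48 to 0.77, the highest being *Tubgcp4*.

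The stathmins were read from 4 genes. *Stmn1*, the widely expressed stathmin that sequesters tubulin dimers, read -2.00 and -1.47 in dcKO, a mean of -1.74 ± 0.38 or 3.33-fold less signal (limma adjusted p = 0.0126), against -0.59 in *Sox4* cKO and -0.30 in *Sox11* cKO. Without dcKO replicate 1 it was -1.19 and the call was lost (limma adjusted p = 0.173), as it was with an offset of 50 (limma adjusted p = 0.0767) and with the processed signals (limma adjusted p = 0.22). *Stmn2*, the stathmin of growing axons, was lower in *Sox11* cKO at -2.08 and -2.35, a mean of -2.21 ± 0.20 (limma adjusted p = 0.0144), with the *Sox11* cKO channel above background on 1 of 2 arrays. The call was lost with an offset of 50 (-1.70, limma adjusted p = 0.241) and with the processed signals (-3.23, limma adjusted p = 0.64). On the dcKO arrays *Stmn2* was above background in 0 of 2 dcKO channels and 1 of 2 wild-type channels, so the ratio there, -0.20, was read near background. The wild-type level was itself lower on those arrays, at a mean of 5.25 against 8.03 on the *Sox11* cKO arrays and 8.88 on the *Sox4* cKO arrays. The difference between dcKO and *Sox11* cKO of 2.01 (limma adjusted p = 0.0229) and the departure from additivity of 3.11 (limma adjusted p = 0.017) rest on that ratio. Both were lost with an offset of 50, with the processed signals and without dcKO replicate 1 (limma adjusted p = 0.133 and 0.0572), the first also without dcKO replicate 2 (limma adjusted p = 0.115), and the second without either *Sox4* cKO replicate (limma adjusted p = 0.0906 and 0.0529).

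Among genes that bind microtubules, 50 of 51 were measured. *Arhgef2*, which codes for a microtubule-bound protein, was lower in dcKO at -1.01 and -1.16, a mean of -1.09 ± 0.10 (limma adjusted p = 0.0329). *Clasp1*, a stabiliser of growing plus ends, read -0.64 and -0.91, a mean of -0.78 ± 0.19 (limma adjusted p = 0.0483). Neither reached the 1.5 threshold, and both lost the adjusted p with an offset of 50, with the processed signals and without the dye term. Leaving out either dcKO replicate also ended it for both (limma adjusted p from 0.307 to 0.414), and leaving out either *Sox4* cKO replicate ended it for *Clasp1* (limma adjusted p = 0.103). *Clip4* and *Mtus1*, which bind the plus end and the lattice, had the highest dcKO values of this list, at 1.47 and 1.33, and neither passed against wild type in any genotype. *Clip4* read 0.02 and -3.13 in *Sox11* cKO, and none of its differences between genotypes passed. *Mtus1* read -2.09 and -1.5 in *Sox4* cKO, -1.05 and -2.81 in *Sox11* cKO and 1.72 and 0.94 in dcKO, so that only the dcKO arrays were above 0. It was above background in 1 of 2 *Sox11* cKO channels and in 1 of 2 wild-type channels of the dcKO arrays. Its dcKO value was higher than that of *Sox4* cKO by 3.13 (95% interval 2.01 to 4.25, limma adjusted p = 0.0435) and than that of *Sox11* cKO by 3.26 (95% interval 2.14 to 4.38, limma adjusted p = 0.0457), and departed from additivity by 5.06 (95% interval 3.69 to 6.43, limma adjusted p = 0.0284). These 3 calls were lost with an offset of 50, with the processed signals (limma adjusted p from 0.324 to 0.395), without the dye term, with only probes above background on at least 2 arrays, and without either dcKO replicate (limma adjusted p from 0.102 to 0.278). Without *Sox4* cKO replicate 1 the first and the last were lost as well (limma adjusted p = 0.184 and 0.0734). *Clip2*, *Mapre2*, *Dclk1* and *Map7d1* had dcKO values of -0.92, -0.90, -0.83 and -0.74, *Mapre3*, *Map4* and *Map2* 0.79, 0.68 and 0.64, and none of these 7 passed.

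Of the 28 enzymes that modify tubulin, *Ttll4*, which adds glutamate chains, was the 1 that passed the adjusted p. It read -1.19 and -1.04 in dcKO, a mean of -1.11 ± 0.10 (limma adjusted p = 0.0141), with 0.49 in *Sox4* cKO and 0.12 in *Sox11* cKO. The adjusted p was lost with the processed signals (limma adjusted p = 0.202) and without dcKO replicate 1 or 2 (limma adjusted p = 0.197 and 0.203). Its dcKO value lay below that of *Sox4* cKO by -1.61 (95% interval -2.09 to -1.12, limma adjusted p = 0.0261), a call lost with an offset of 50 (limma adjusted p = 0.0834), with the processed signals (0.324), without the dye term (0.0513), with the filter on dim probes (0.0509) and without any 1 of the *Sox4* cKO or dcKO replicates (0.131 to 0.256). *Atat1*, the α-tubulin acetyltransferase, had a dcKO value of -0.88 and *Ttll5* one of -0.78, while *Ttll3* and *Agbl3* had -0.58 and 0.58, and none of these 4 passed. The median over the list was -0.01 in dcKO. The 12 proliferation genes gave dcKO values from -0.46 to 0.37 with a median of -0.13, beside medians of 0.27 in *Sox4* cKO and 0.52 in *Sox11* cKO, and 0 of them passed in any genotype with limma.

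**Figure D4:**
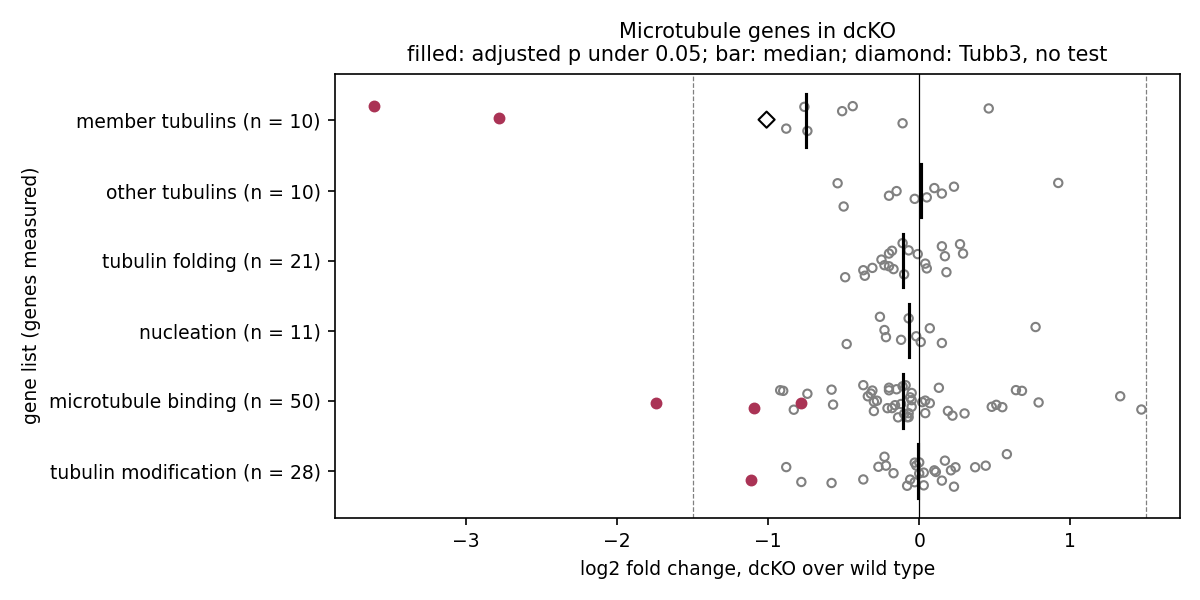
Each point is a gene, placed by its log2 fold change in dcKO over wild type on the horizontal axis and by gene list on the vertical axis; filled points have a limma adjusted p under 0.05, the diamond is *Tubb3*, shown without a test, black bars are list medians (*Tubb3* included) and dashed lines mark 1.5. The 10 tubulins reach from -3.61 to 0.46, and the lists below them centre between -0.11 and 0.01.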

How the data were processed

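Spots of 2-colour Agilent arrays (6 arrays, 62976 spots each) were read with Agilent Feature Extraction (version 11.0.1.1 in the authors' processing notes), and the deposited scanner files hold median spot and background intensity for each channel. Per the paper's methods, the authors corrected intensities by normexp with an offset of 16, normalised by loess, removed the dye effect with ComBat and deposited log2 ratios in a value table. That table correlated with the knockout over wild-type ratios computed here by 0.89 to 0.952 per array, with medians between -0.00664 and 0.00452. It was used as an alternative.

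Here, limma 3.58.1 in R 4.3.3 was used with normexp (offset 16) and within-array loess. The 3671 control spots had weight 0 and were left out afterwards, as were 194 to 288 spots per array marked as outliers by the scanner, and spots of a probe were averaged. Ratios were turned as knockout over wild type. All 6 arrays entered 1 fit with a genotype effect and a shared dye effect, which equals a block on the replicate number (2 residual and 5.37 prior degrees of freedom). P-values were adjusted by Benjamini-Hochberg over 55681 probes. Calls needed an adjusted p under 0.05 and a log2 fold change above 1.5 in size. Same-numbered arrays deviated together (r of 0.125 to 0.316 over 3 pairs of genotypes). Levels per channel were taken after loess and Aquantile scaling.

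Probes were named through RefSeq accessions (95.1% of 29786 matched; assembly GRCm38.p6), a gene being read by its brightest probe. All 10 tubulins and all their probes were named; of the other microtubule lists, genes past both thresholds and then those with the largest dcKO change were named, up to 20, and the 5 genes nearest to *Tubb3*. The members and lists were chosen with earlier results of these data known, and *Tubb3* was left out of the stated calls and medians of the dcKO comparisons. On data simulated for the dcKO comparison (55681 probes, 200 changed), 85.5% of changes of 1 on the log2 scale passed the adjusted p. Of these changes 1% were called, since a call also needs the fold threshold, and 100% of changes of 2 or 3 were called. False calls numbered 5, 2 and 5 at changes of 1, 2 and 3. In the measured data *Clip4* at 1.47 and *Mtus1* at 1.33 missed the adjusted p in dcKO, so the simulated shares do not hold for every probe. The number of arrays limits precision. No slide or scan batch could be examined, since the 6 arrays shared 1 slide and 1 scan.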

Additional observations from a re-analysis of the deposited data

Results flagged for a closer look

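The wild-type level of *Tubb5* on *Sox11* cKO replicate 2 stood apart from the other 5 wild-type channels, at 15.09 against 16.08 to 16.33, with a gap of 0.798 of the whole range. The brighter *Tuba1b* probe was highest in the wild-type channel of dcKO replicate 2, at 16.89 against 16.13 to 16.34, with a gap of 0.729 of the range. With groups of this size, chance marks about 1 in 20 groups this way, and 12 probes were examined.

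The change of *Tuba1a* differed between genotypes in a test of the difference itself. It was more negative in dcKO than in *Sox4* cKO by -2.68 (limma adjusted p = 0.019) and than in *Sox11* cKO by -2.28 (limma adjusted p = 0.0323). Over all alternatives these adjusted p-values ranged from 0.000742 to 0.324 and from 0.0105 to 0.378, and the differences from -3.26 to -2.17 and from -2.82 to -1.77.

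Of the other microtubule genes, *Mtus1* differed between dcKO and *Sox4* cKO by 3.13, between dcKO and *Sox11* cKO by 3.26 and from additivity by 5.06 (limma adjusted p = 0.0435, 0.0457 and 0.0284). *Stmn2*, read near background on the dcKO arrays, differed between dcKO and *Sox11* cKO by 2.01 and from additivity by 3.11 (limma adjusted p = 0.0229 and 0.017). *Ttll4* differed between dcKO and *Sox4* cKO by -1.61 (limma adjusted p = 0.0261).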

How the results depend on the processing

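Of 988 recomputed values, which included counts and medians, 815 were marked as unchanged. Many could not change, since leaving out an array of another genotype does not move the estimate of a genotype against wild type. This total is therefore no measure of robustness. With a normexp offset of 50, dcKO called 1 tubulin (*Tuba1a*), either difference between dcKO and a single knockout 0, and the other microtubule genes 0 in dcKO, in *Sox11* cKO, in either difference and for additivity. With the scanner's processed signals, 0 tubulins were called in dcKO or in either difference, and 0 other microtubule genes in dcKO, in *Sox11* cKO, in either difference or for additivity, while *Tubb2a* in *Sox4* cKO (-0.07) and *Tuba1b* in *Sox11* cKO (-0.02) changed sign. With median centring the dcKO median was -1.24, and 3 tubulins were called in each difference, 3 for additivity, and of the other microtubule genes 3 in dcKO, 6 in each difference and 5 for additivity. The sign turned there for *Tubb4b* in dcKO (-0.06) and against *Sox4* cKO (-0.35), and for *Tubb3* (-0.48) and *Tubb2a* (-0.20) in dcKO against *Sox11* cKO. The authors' value table called 2 tubulins between dcKO and *Sox4* cKO and 4 other microtubule genes for additivity. Without the replicate block, 0 tubulins differed between dcKO and *Sox4* cKO (*Tuba1a* adjusted p = 0.0535, limma) and 0 between dcKO and *Sox11* cKO (0.0975), the other microtubule genes gave 0 against *Sox4* cKO, 1 against *Sox11* cKO and 1 for additivity (*Stmn2* in both), and no count of calls in a single genotype changed. With only probes above background on at least 2 arrays, 0 tubulins differed between dcKO and *Sox11* cKO, and of the other microtubule genes 0 between dcKO and *Sox4* cKO, 1 between dcKO and *Sox11* cKO and 1 for additivity. The mean of a gene's probes turned *Tuba1b* in *Sox11* cKO to -0.05. Shares of all named genes called are given for the main fit alone, so the counts under these settings have no like share beside them. The cause of these changes was not tested.

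Leaving out each array in turn gave 1 to 2 called tubulins in dcKO (1 without dcKO replicate 1), 0 to 2 in each difference and 0 to 1 for additivity (*Tubb6*, without *Sox11* cKO replicate 1). The median was -0.08 to 0.08 in *Sox4* cKO, -0.03 to 0.01 in *Sox11* cKO and -0.74 to -0.60 in dcKO. Other microtubule genes called were 0 to 1 in dcKO, 0 to 1 in *Sox4* cKO, 1 to 7 in *Sox11* cKO, 0 to 4 between dcKO and *Sox4* cKO (4 without either *Sox11* cKO replicate), 0 to 9 between dcKO and *Sox11* cKO and 0 to 14 for additivity, the 7, 9 and 14 without *Sox11* cKO replicate 1. Signs turned within these ranges. In *Sox4* cKO, *Tubb2a* ran from -0.24 to 0.27, *Tubb2b* from -1.26 to 0.14, *Tubb4b* from -0.22 to 0.68 and *Tuba4a* from -0.13 to 0.42. In *Sox11* cKO, *Tubb5* ran from -0.10 to 0.00 and *Tuba4a* from -0.01 to 0.19. In dcKO, *Tubb2a* ran from -0.91 to 0.02, *Tubb4b* from -0.02 to 0.95 and *Tuba4a* from -0.28 to 0.07. Between dcKO and *Sox4* cKO, *Tubb4b* ran from -0.25 to 0.73, *Tuba4a* from -0.53 to 0.02 and *Tubb2a* from -0.92 to 0.01. Between dcKO and *Sox11* cKO, *Tubb3* ran from -0.18 to 0.45, *Tubb4b* from -0.50 to 0.48 and *Tubb2a* from -0.06 to 0.87. Shares of all named genes are not given for fits with an array left out, so those counts have no like share beside them. A genotype left with 1 array was assumed to vary like the others. Its value is then the estimate of the fit with the shared dye effect, not the ratio of the remaining array. Naming probes by a gene-name column was not run, because the scanner files used hold none. Signal over background limits the values of *Stmn2*, *Mtus1* and the second *Tubb2b* probe, which some channels did not measure.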
